A study of Mus musculus with 32 samples.

Results

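The 10 genes described here encode enzymes that turn arachidonic acid into prostaglandins, thromboxane, leukotrienes and hydroxylated fatty acids, or that inactivate the products. They are Ptgs1, Ptgs2, Ptges, Hpgds, Tbxas1, Hpgd, Alox5, Alox5ap, Ltc4s and Alox15, 10 of the 24421 genes in the count tables. The genes were chosen by name as a pathway and selected on their scaled counts across the groups, so their own levels and fold changes are given as descriptions with no test. All 10 passed the filter on low counts that left 13453 genes for testing. Macrophages were sorted from epididymal adipose tissue of C57BL/6J mice that were wild-type or had a knockout of A20 restricted to myeloid cells. A20, the product of Tnfaip3, acts as a brake on NF-kappaB signalling, and the study dealt with obesity and insulin resistance when myeloid cells lack it. Mice of both genotypes had 12 weeks of a high-fat or a standard diet. Cells were sorted by flow cytometry into a CD11c+ population, low for CD206, and a CD206+ population, low for CD11c, and sequenced in bulk. Genotype, diet and population gave 8 groups of 4 libraries, 32 in all. In the sources used here the Cre driver, the ages of the mice and the number of mice behind a library are not given, so the p-values measure the spread between libraries, which may be technical.

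Arachidonic acid is released from membranes by phospholipases and then meets 1 of several oxygenases. The cyclooxygenases Ptgs1 and Ptgs2 make the unstable prostaglandin H, which terminal synthases convert into prostaglandin E (Ptges), prostaglandin D (Hpgds) or thromboxane (Tbxas1), and Hpgd begins the breakdown of E-type prostaglandins. Alox5, helped by its membrane partner Alox5ap, opens the leukotriene branch, in which Ltc4s attaches glutathione to form the cysteinyl leukotrienes, while Alox15 oxygenates other positions of the fatty acid and feeds lipid mediators linked to the end of inflammation.

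Gene counts per library ran from 17619638 to 23832924, and 14314 to 15689 genes were detected. Levels below are CPM, counts per 1e+06 reads in genes after TMM scaling, given as mean ± standard deviation over the 4 libraries of a group. Tnfaip3 lay at 213 to 372 CPM on average in the 4 knockout groups and at 638 to 1460 CPM in the wild-type groups, with every knockout library below every wild-type library. Group means of Itgax, which encodes CD11c, were 196 to 320 CPM for CD11c+ and 3.41 to 34.4 CPM for CD206+ cells, and those of Mrc1, which encodes CD206, were 453 to 633 and 1460 to 1890 CPM. The 34.4 CPM of Itgax belonged to CD206+ wild-type cells on the high-fat diet, and the remaining CD206+ groups lay at 3.41 to 4.54 CPM. In bulk libraries, fewer cells of a type and less RNA per cell cannot be told apart.

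In both populations on the standard diet, Ptgs2 was higher and Ptgs1 lower in knockout than in wild-type cells. On the high-fat diet both were higher on average in the knockout. The sequences around the starts of these cyclooxygenase genes are shown first. Promoters of 300 bases, 250 before the start and 50 after it, were taken from RefSeq (GRCm38.p6), where 8 of the 10 genes had an entry. Capitals mark matches, searched for on both strands, to any of 5 motifs. The core of the cAMP response element was searched as TGACGT. The E-box, which several leucine-zipper and helix-loop-helix factors recognise, was searched as CACGTG. The palindromic C/EBP site was searched as TTGCGCAA, and the TATA box of some core promoters as TATAAA. The last motif was a kappaB-like one of 10 letters. Ptgs2 lies at chr1:150100031-150108227 and Ptgs1 at chr2:36230426-36252272, both on the plus strand.
Ptgs2, chr1:150099781-150100080, plus strand: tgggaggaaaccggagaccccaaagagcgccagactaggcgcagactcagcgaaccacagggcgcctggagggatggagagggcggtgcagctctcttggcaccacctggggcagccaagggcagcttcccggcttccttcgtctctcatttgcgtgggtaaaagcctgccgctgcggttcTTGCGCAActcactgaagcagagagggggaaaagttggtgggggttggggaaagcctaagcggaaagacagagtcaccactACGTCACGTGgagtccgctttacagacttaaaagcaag
Ptgs1, chr2:36230176-36230475, plus strand: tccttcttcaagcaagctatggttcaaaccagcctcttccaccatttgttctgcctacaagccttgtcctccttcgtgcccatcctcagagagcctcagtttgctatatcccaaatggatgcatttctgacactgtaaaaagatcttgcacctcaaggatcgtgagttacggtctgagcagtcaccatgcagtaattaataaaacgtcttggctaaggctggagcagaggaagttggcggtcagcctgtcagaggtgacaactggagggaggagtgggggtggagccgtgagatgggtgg
The Ptgs2 window held the C/EBP palindrome at -69 to -62. It also held the response-element core (as ACGTCA) at 13 to 18 and the E-box at 17 to 22, which overlap at 17 to 18. Positions count from the first transcribed base of the annotation as 1. The Ptgs1 window held none of the 5 motifs. Among 32851 promoters of the same length, 0.183% held the C/EBP palindrome, 7.51% the response-element core, 7.15% the E-box, 1.63% the kappaB-like motif and 13.6% the TATA box. Such matches describe letters and not bound sites. Of the other windows searched, those of Tbxas1 and Hpgd held TATAAA and no other motif of the 5.

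**Figure D1:**
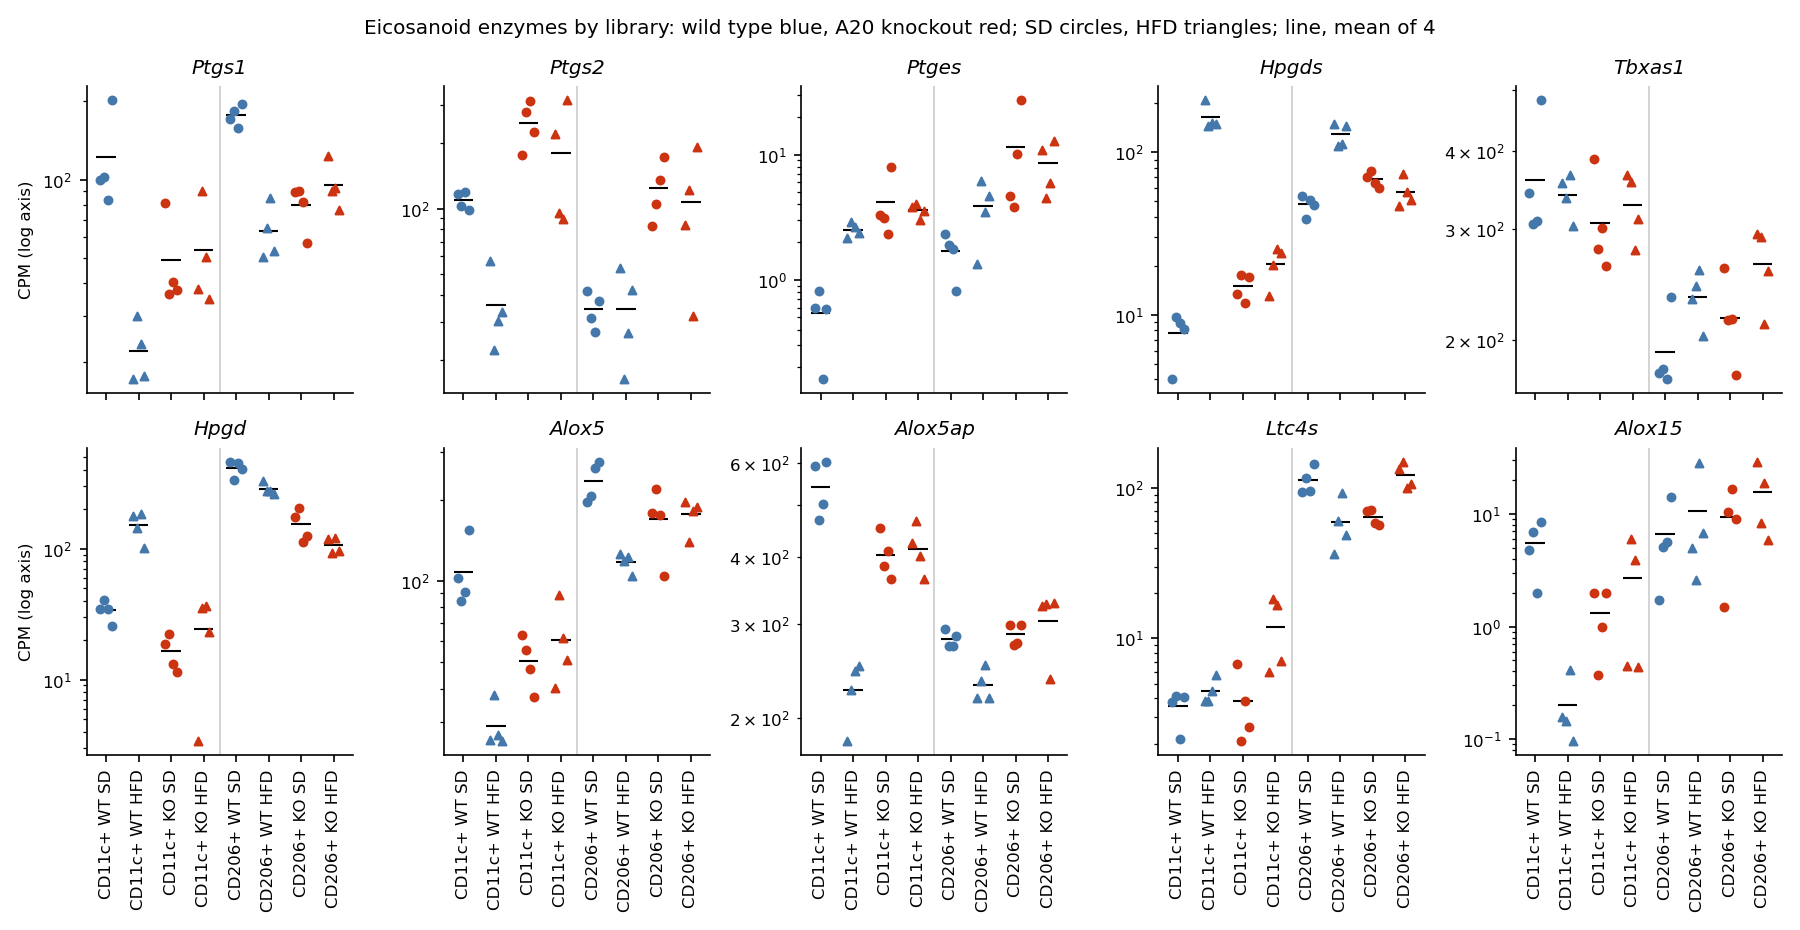
Levels of the 10 enzyme genes in each of the 32 libraries, in CPM on a log axis, with wild-type libraries in blue, A20 knockout in red, standard diet as circles, high-fat diet as triangles and a line at the mean of each group of 4. Hpgds is highest in the wild-type high-fat groups, Ptgs2 is higher in most knockout libraries than in wild-type ones of the same population and diet, and Ltc4s separates the CD206+ from the CD11c+ libraries.

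Ptgs2, the inducible cyclooxygenase, was higher in knockout than in wild-type cells in both populations and on both diets. In CD11c+ cells on the high-fat diet the wild-type libraries read 57.1, 22.1, 30.3 and 33.2 CPM, and the knockout libraries 221, 95.5, 89.4 and 318 CPM. The groups did not overlap, and the fitted difference was 2.34 ± 0.42 on the log2 scale (± is the standard error of a fitted difference throughout). On the standard diet CD11c+ wild-type libraries read 117, 103, 119 and 98.6 CPM and knockout libraries 176, 280, 313 and 227 CPM, again apart, with a difference of 1.19 ± 0.41. CD206+ cells on the standard diet went from 41.6, 31.3, 26.8 and 37.5 CPM in wild type to 83.4, 105, 136 and 173 CPM in knockout, a difference of 1.86 ± 0.42. On the high-fat diet the CD206+ groups overlapped, because knockout replicate 3, at 31.9 CPM, lay within the wild-type range of 16.2 to 53 CPM, while the other knockout libraries read 83.7, 122 and 193 CPM. The difference there was 1.64 ± 0.42.

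Ptgs1, the cyclooxygenase made constitutively by many cells, shared the direction of Ptgs2 in some comparisons and not in others. Its highest level was in CD206+ wild-type cells on the standard diet, at 171, 184, 157 and 195 CPM. High-fat feeding of wild-type mice went with 50.5, 65.2, 85.3 and 53.3 CPM in the same population, a difference of -1.47 ± 0.29 between groups that did not overlap. In CD11c+ wild-type cells the standard-diet libraries read 99.3, 102, 83.7 and 202 CPM and the high-fat libraries 17.1, 30, 23.4 and 17.6 CPM, a difference of -2.47 ± 0.3. Among the 8 groups CD11c+ wild-type cells on the high-fat diet were the lowest and were the one group whose range did not touch that of the next. Knockout groups lay between these extremes, at 49 ± 21.8 and 53.4 ± 25.6 CPM in CD11c+ cells and at 79.7 ± 15.6 and 95.5 ± 19.7 CPM in CD206+ cells on the standard and the high-fat diet. The knockout was therefore below wild type on the standard diet, by -1.31 ± 0.29 in CD11c+ and -1.15 ± 0.29 in CD206+ cells. On the high-fat diet it was above, by 1.28 ± 0.3 in CD11c+ cells, and by 0.59 ± 0.29 in CD206+ cells, where the groups overlapped. Platelets also express Ptgs1, and the 6 platelet genes listed summed to 76.2 to 1010 CPM, most of it Pf4 (73.2 to 1000 CPM), which macrophages also express. Gp1ba, Gp9 and Gp6 stayed under 1 CPM in every library.

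Exon lengths, with all annotated exons of a gene merged, were 3884 bases for Ptgs1 and 4580 for Ptgs2 in GENCODE M21. With levels divided by these lengths, Ptgs2 made up 14.1 ± 2.1% of the cyclooxygenase transcripts in CD206+ wild-type cells on the standard diet. Its share was 31.4 ± 14.5% on the high-fat diet, and 56.1 ± 12.1% and 45.2 ± 19.9% in the knockout on the standard and the high-fat diet. In CD11c+ cells the shares were 45 ± 11.1% and 56.6 ± 15% in wild type and 80.5 ± 10.6% and 69.8 ± 19.5% in the knockout. On the standard diet the knockout range was above the wild-type range in both populations (64.7 to 86.8% against 29.2 to 54.7% in CD11c+ cells, 44.2 to 72% against 12.6 to 17.1% in CD206+ cells). On the high-fat diet the ranges overlapped in both.

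**Figure D2:**
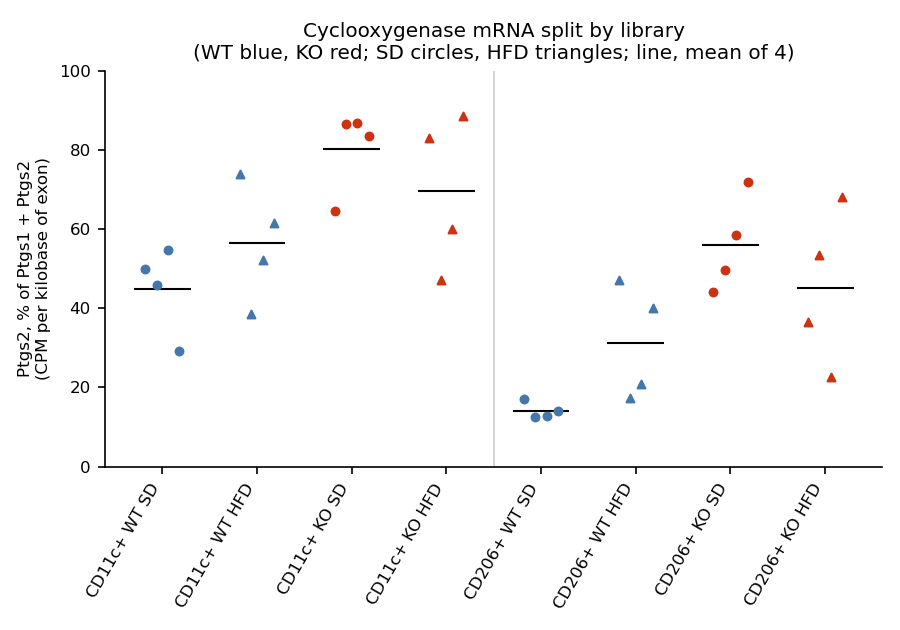
Share of Ptgs2 in the summed levels of Ptgs1 and Ptgs2, each in CPM per kilobase of exon, for every library, with wild type in blue, knockout in red, standard diet as circles, high-fat diet as triangles and a line at each mean. CD206+ wild-type libraries on the standard diet sit between 12.6 and 17.1%, below all other libraries, and the 4 CD11c+ knockout libraries on the standard diet sit between 64.7 and 86.8%.

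Hpgds, the haematopoietic prostaglandin D synthase (chr6:65117293-65144908, minus strand), had the widest diet contrast in wild-type cells among the terminal synthases. In CD11c+ wild-type cells it read 4, 9.74, 8.93 and 8.21 CPM on the standard diet and 210, 146, 152 and 150 CPM on the high-fat diet. The high-fat libraries were all far above the others, 21.4-fold higher on average, with a difference of 4.42 ± 0.23. In CD206+ wild-type cells it read 54.1, 38.6, 51 and 47.6 CPM on the standard diet and 150, 110, 113 and 146 CPM on the high-fat diet, a difference of 1.44 ± 0.2. The knockout groups on the high-fat diet were both lower than wild type without overlap, at 13, 20.2, 25.5 and 23.9 CPM in CD11c+ cells and at 46.6, 73.8, 56.8 and 50.9 CPM in CD206+ cells. These differences were -2.99 ± 0.21 and -1.19 ± 0.2. On the standard diet the order was the other way, with the knockout at 15 CPM against 7.72 CPM in CD11c+ cells (0.96 ± 0.22) and at 68.2 CPM against 47.8 CPM in CD206+ cells (0.51 ± 0.2).

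Mast cells also express Hpgds, and summed mast cell transcripts were, like Hpgds, higher on the high-fat than on the standard diet in wild-type cells. The 9 mast cell genes listed, all found, summed to 17.7 to 47.3 CPM in CD11c+ wild-type cells on the high-fat diet, with Ms4a2 and Fcer1a under 1 CPM in every library, and to 3.36 to 8.1 CPM on the standard diet, where 7 of the 9 stayed under 1 CPM. In CD206+ wild-type cells the sums were 26.7 to 131 CPM and 7.7 to 16.6 CPM. Of 8 mast cell genes tested, 6 rose with high-fat feeding in each wild-type population. Of all genes, 46.3% were called there in CD11c+ and 27.7% in CD206+ cells. Knockout sums ran from 3.63 to 24.8 CPM in CD11c+ and from 4.02 to 48.8 CPM in CD206+ cells. On the high-fat diet 3 of the 8 fell against wild type in CD11c+ and 1 in CD206+ cells. In these comparisons 38% and 21.8% of all genes were called, so nothing is read from the falls. The 7 stromal genes listed were higher too in wild-type cells on the high-fat diet, at 190 to 577 CPM against 50.2 to 161 CPM in CD11c+ and 421 to 1870 CPM against 221 to 711 CPM in CD206+ cells, and all 7 were lower in the knockout than in wild type on that diet in both populations. Within the CD206+ knockout group on the high-fat diet, the mast cell protease gene Tpsb2 read 10.2 and 15 CPM in replicates 1 and 3 and at most 0.0515 CPM in the other pair. Hpgds in the same libraries was 46.6 and 56.8 CPM against 73.8 and 50.9 CPM, and these libraries were singled out after their values were seen. The part of mast and stromal cells in the difference between groups was not tested.

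Ptges, the inducible prostaglandin E synthase (chr2:30889471-30929863, minus strand), was a low-level transcript. On the standard diet CD11c+ wild-type libraries read 0.591, 0.82, 0.16 and 0.586 CPM and knockout libraries 3.27, 3.11, 2.32 and 7.93 CPM, a difference of 2.92 ± 0.6. CD206+ cells on the same diet read 2.34, 1.9, 1.76 and 0.818 CPM in wild type and 4.66, 3.79, 10.1 and 27.4 CPM in knockout, a difference of 2.74 ± 0.52 that became 1.88 without knockout replicate 4. In both populations the knockout was above wild type without overlap on this diet. On the high-fat diet the differences were 0.52 ± 0.51 in CD11c+ and 1.13 ± 0.49 in CD206+ cells, and the wild-type level was itself higher than on the standard diet, by 2.2 ± 0.6 and 1.19 ± 0.52.

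Tbxas1, thromboxane synthase (chr6:38875404-39084585, plus strand), varied least. Its group means ran from 308 to 360 CPM in CD11c+ and from 191 to 264 CPM in CD206+ cells. Neither genotype differences, from -0.23 ± 0.15 to 0.18 ± 0.15, nor diet differences, from -0.08 ± 0.15 to 0.29 ± 0.15, reached the size seen between populations on the standard diet, 0.91 ± 0.15 in wild type and 0.5 ± 0.15 in knockout. Other annotated genes on the opposite strand overlap Tbxas1 (Hipk2 among them), and in the sources used here the strand setting of the counts is not stated.

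Hpgd, the dehydrogenase that inactivates prostaglandin E (chr8:56294585-56321043, plus strand), was lower in the knockout in each of the 4 comparisons with wild type, without overlap. CD206+ wild-type cells on the standard diet held most, with 464, 338, 455 and 405 CPM against 176, 204, 113 and 125 CPM in the knockout, a difference of -1.43 ± 0.33. On the high-fat diet CD206+ libraries read 330, 274, 275 and 262 CPM in wild type and 119, 92.6, 120 and 96.6 CPM in the knockout, a difference of -1.42 ± 0.33. CD11c+ wild-type libraries read 34.7, 40.9, 34.7 and 25.7 CPM on the standard and 179, 145, 183 and 102 CPM on the high-fat diet. The CD11c+ knockout libraries read 18.7, 22.3, 13.1 and 11.5 CPM and 3.39, 35.4, 36.3 and 23 CPM, overlapping between the diets. The genotype differences in CD11c+ cells were -2.63 ± 0.35 on the high-fat and -1.05 ± 0.35 on the standard diet. The diet difference in wild type was 2.16 ± 0.35 in CD11c+ cells and -0.54 ± 0.33 in CD206+ cells, so the populations, 12.2-fold apart on the standard diet, were 1.88-fold apart on the high-fat diet.

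**Figure D3:**
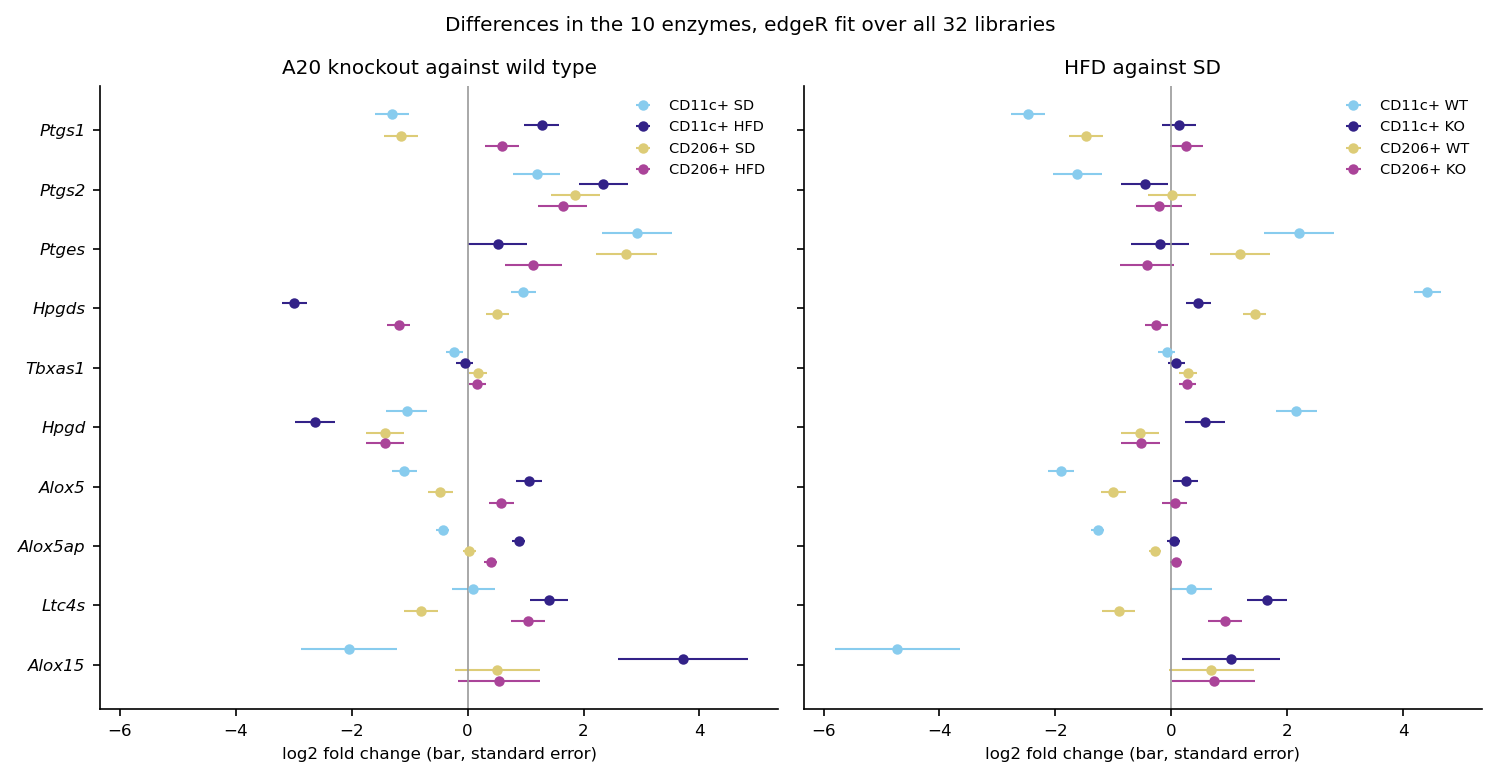
Fitted log2 differences of the 10 enzyme genes, knockout against wild type in each population and diet (left) and high-fat against standard diet in each population and genotype (right), with bars for the standard error. Ptgs2 lies to the right and Hpgd to the left of 0 in all 4 genotype comparisons, Ptgs1 and Hpgds change side with diet, and in CD11c+ cells the diet differences of the knockout sit closer to 0 than those of wild type for 8 of the 10 genes.

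Alox5, 5-lipoxygenase (chr6:116410077-116461178, minus strand), followed the pattern of Ptgs1. CD11c+ wild-type libraries read 103, 84.1, 91.3 and 155 CPM on the standard diet and 25.7, 37.8, 26.9 and 25.6 CPM on the high-fat diet, a difference of -1.9 ± 0.23. Knockout CD11c+ cells lay between, at 62.9, 55.8, 47.2 and 37.3 CPM and at 40.1, 88.6, 61.6 and 51.1 CPM on the standard and the high-fat diet. They were thus lower than wild type on the standard diet (-1.09 ± 0.22) and higher on the high-fat diet (1.06 ± 0.23), without overlap in either case. In CD206+ cells the wild-type groups differed by -1 ± 0.22 between the diets, from 235 to 118 CPM on average, and the knockout stood at 169 and 177 CPM.

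Alox5ap, the gene of the 5-lipoxygenase-activating protein (chr5:149264767-149288153, plus strand), had the highest level per kilobase of exon of the 10 genes in each CD11c+ group, from 159 to 381 CPM per kilobase. In CD11c+ wild-type cells it read 592, 469, 502 and 603 CPM on the standard diet and 181, 225, 245 and 250 CPM on the high-fat diet, a difference of -1.27 ± 0.11 between groups far apart. The CD11c+ knockout groups, at 453, 384, 410 and 363 CPM and at 425, 466, 401 and 364 CPM, sat between the wild-type groups and hardly differed from each other (0.04 ± 0.11). Against wild type they were 0.88 ± 0.11 higher on the high-fat diet and -0.43 ± 0.11 lower on the standard diet. In CD206+ cells all group means fell between 230 and 303 CPM, with the knockout 0.4 ± 0.11 above wild type on the high-fat diet and 0.03 ± 0.11 on the standard diet. Genes on the opposite strand are annotated across parts of Ptgs1, Alox5ap and Ltc4s, so counts made without regard to strand could include them.

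Summed levels of dendritic cell genes were, like Ptgs1, Alox5 and Alox5ap, lower on the high-fat than on the standard diet in both wild-type populations. The 6 dendritic cell genes listed summed to 263 to 533 CPM in CD11c+ wild-type cells on the standard diet, to 25.7 to 91.9 CPM on the high-fat diet, and to 87.6 to 220 and 67.5 to 218 CPM in the CD11c+ knockout groups, with all 6 at 1 CPM or more in some library of each. In CD206+ cells the sums were 246 to 306 CPM in wild type on the standard diet, 22.5 to 32.3 CPM on the high-fat diet and 20 to 41.5 CPM in the knockout groups. Flt3 stayed under 1 CPM in the CD206+ groups other than wild type on the standard diet, as did Clec9a in CD206+ wild type on the high-fat diet. All 6 rose in CD11c+ knockout against wild-type cells on the high-fat diet (38% of all genes called in either direction). With high-fat feeding 2 of the 6 fell in each wild-type population (46.3% in CD11c+ and 27.7% in CD206+ cells). Between the wild-type populations 4 of the 6 were higher in CD11c+ cells on each diet (63.7% on the standard and 20.4% on the high-fat diet). In CD11c+ cells Alox5 was lower on each diet, and so was Ptgs1, with overlap on the standard diet. Alox5ap was higher there on the standard diet (0.95 ± 0.11) and overlapped on the high-fat diet (-0.03 ± 0.11). The part of dendritic cells in the levels of these enzymes was not tested.

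Ltc4s, leukotriene C4 synthase (chr11:50236461-50238616, minus strand), marked the CD206+ population. CD206+ wild-type cells on the standard diet read 93.4, 116, 94.9 and 143 CPM, and CD11c+ wild-type cells 3.77, 4.15, 2.14 and 4.11 CPM. The populations were 31.5-fold apart on the standard diet and 13.2-fold apart on the high-fat diet in wild type, and 16.8-fold and 10.2-fold apart in the knockout, with no overlap in any of the 4 comparisons. Within CD206+ cells wild type was lower on the high-fat diet, at 36.4, 60.1, 92.2 and 48.7 CPM (-0.91 ± 0.29). The CD206+ knockout read 70.1, 70.6, 58.5 and 56.7 CPM on the standard and 134, 149, 100 and 105 CPM on the high-fat diet, above wild type on the latter by 1.04 ± 0.29 and below it on the former by -0.81 ± 0.29. In CD11c+ knockout cells on the high-fat diet the 4 libraries split, with 18.2 and 16.6 CPM in replicates 2 and 3 and 6.01 and 7.1 CPM in replicates 1 and 4.

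The same pairs of CD11c+ knockout libraries differed in several other genes, which were looked at after the values had been seen. Replicates 2 and 3 held 6.02 and 3.92 CPM of Alox15 against 0.445 and 0.441 CPM in replicates 1 and 4, 95.5 and 89.4 CPM of Ptgs2 against 221 and 318 CPM, and 20.7 and 31.5 CPM of Lyve1, a gene of perivascular resident macrophages, against 8.4 and 5.05 CPM. Their Itgax levels, 173 and 146 CPM, were below the 211 and 253 CPM of the other pair. Their levels of Mrc1, which was higher in the CD206+ groups, were also below those of the other pair, at 631 and 532 CPM against 695 and 656 CPM. Pf4 and Hpgd, also higher in CD206+ cells within each genotype and diet, went the other way. Pf4 read 329 and 327 CPM against 178 and 192 CPM, and Hpgd 35.4 and 36.3 CPM against 3.39 and 23 CPM. The mast cell gene Tpsb2 read 4.26 and 5.86 CPM against 0.111 and 0 CPM. The part of carried-over CD206+ cells or of mast cells in these values was not tested.

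Alox15, 12/15-lipoxygenase (chr11:70344152-70352031, minus strand), had the lowest level per kilobase of exon of the set in CD11c+ wild-type cells on the high-fat diet, where its counts were 3, 3, 8 and 2 reads. It read 4.82, 6.85, 1.98 and 8.47 CPM in those cells on the standard diet. The fitted difference of high-fat from standard diet in wild type was -4.73 ± 1.08. The knockout was above wild type on the high-fat diet, at 2.71 against 0.202 CPM on average, by 3.71 ± 1.12, or 2.97 without knockout replicate 2. In CD206+ cells the libraries scattered from 1.49 to 29.2 CPM and every pair of groups overlapped. One wild-type library on the high-fat diet, replicate 3, held 28.4 CPM against 2.61 to 6.75 CPM in the rest of its group, and without it the diet difference went from 0.69 to -0.46. Large peritoneal macrophages are rich in Alox15, and the 5 genes listed for them summed to 47.3 CPM in that library, the highest of its group, against 13.7, 30.3 and 19.7 CPM in replicates 1, 2 and 4. Their factor Gata6 read 0.741 CPM there and 0.909 to 1.87 CPM in the other 3. The part of such cells in this value was not tested. Eosinophils also express Alox15, and the 5 eosinophil genes listed summed to 1.38 to 25.9 CPM, with Prg2 and Epx under 1 CPM in every library.

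Counts of the 10 genes past an adjusted p of 0.05 in the edgeR quasi-likelihood fit stand here beside the share of all tested genes, and since the genes were selected on these values nothing is read from them. Between genotypes, 6 were higher and 2 lower in knockout CD11c+ cells on the high-fat diet (38% of all genes called in either direction), and 3 higher and 4 lower on the standard diet (26.8%). In CD206+ cells 3 were higher and 2 lower on the high-fat diet (21.8%), and 2 higher and 3 lower on the standard diet (24.5%). Between diets in wild type, 3 were higher and 5 lower on the high-fat diet in CD11c+ cells (46.3%), and 1 higher and 4 lower in CD206+ cells (27.7%). Between populations, CD11c+ cells had 1 higher and 4 lower in wild type on the high-fat diet (20.4%), 3 higher and 5 lower in wild type on the standard diet (63.7%), 1 higher and 7 lower in knockout on the high-fat diet (45.8%), and 3 higher and 7 lower in knockout on the standard diet (51.7%). Replicate numbers paired the populations in both wild-type comparisons, and with the number as a block Hpgd also passed on the high-fat diet (-0.94) and Ptgs1 on the standard diet (-0.62), both lower in CD11c+ cells. The difference between the genotype effects on the 2 diets was positive for 5 and negative for 3 in CD11c+ cells (28.8%), and positive for 3 and negative for 1 in CD206+ cells (11.9%).

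The genotype effect on the high-fat diet minus that on the standard diet was, in CD11c+ cells, 2.59 ± 0.41 for Ptgs1, 2.15 ± 0.32 for Alox5, 1.31 ± 0.15 for Alox5ap and -3.95 ± 0.3 for Hpgds. In CD206+ cells the same quantity was 1.74 ± 0.4 for Ptgs1, 1.05 ± 0.31 for Alox5, 1.85 ± 0.41 for Ltc4s and -1.7 ± 0.28 for Hpgds. Ptgs2 gave 1.16 ± 0.57 and -0.21 ± 0.58. The 4 genotype and 4 diet comparisons share groups in pairs, so their values are set side by side and not correlated.

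Knockout cells differed little between the diets. None of the 10 genes passed the threshold in CD11c+ knockout cells, beside 0.00743% of all genes (1 of 13453), and none in CD206+ knockout cells, beside 0% of all genes, by edgeR. At an unadjusted p under 0.05 edgeR counted 2 of the 10 in CD11c+ and 1 in CD206+ cells, beside 9.08% and 6.18% of all genes, and DESeq2 called 1 of the 10, Ltc4s, in CD11c+ and 0 in CD206+ cells, and 51 and 18 of all genes. By edgeR the count over all genes went from 1 to 80 without CD11c+ high-fat replicate 1, to 16 without replicate 4 and to 3 without standard-diet replicate 1, and from 0 to 7 without CD206+ standard-diet replicate 1. Ltc4s had the largest differences, 1.65 ± 0.34 in CD11c+ cells, where the groups overlapped, and 0.93 ± 0.29 in CD206+ cells, where they did not. The CD11c+ difference of Ltc4s was 1.87 without high-fat replicate 1, 1.84 without high-fat replicate 4 and 2.08 without standard-diet replicate 1.

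Of 68 further genes listed for the pathway, 53 passed the filter on low counts and were tested. Their list was drawn up with earlier results of these data known. In knockout against wild-type CD11c+ cells 16 rose and 11 fell on the high-fat diet, and 15 rose and 8 fell on the standard diet, which is 50.9% and 43.4% of the 53 beside 38% and 26.8% of all tested genes. In CD206+ cells 13 rose and 6 fell on the high-fat diet, and 10 rose and 10 fell on the standard diet, or 35.8% and 37.7% beside 21.8% and 24.5%. The median log2 difference of the 53 genes was 0.19, 0.21, 0.15 and 0 in these comparisons, beside -0.02, -0.02, 0 and -0.03 over all tested genes.

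**Figure D4:**
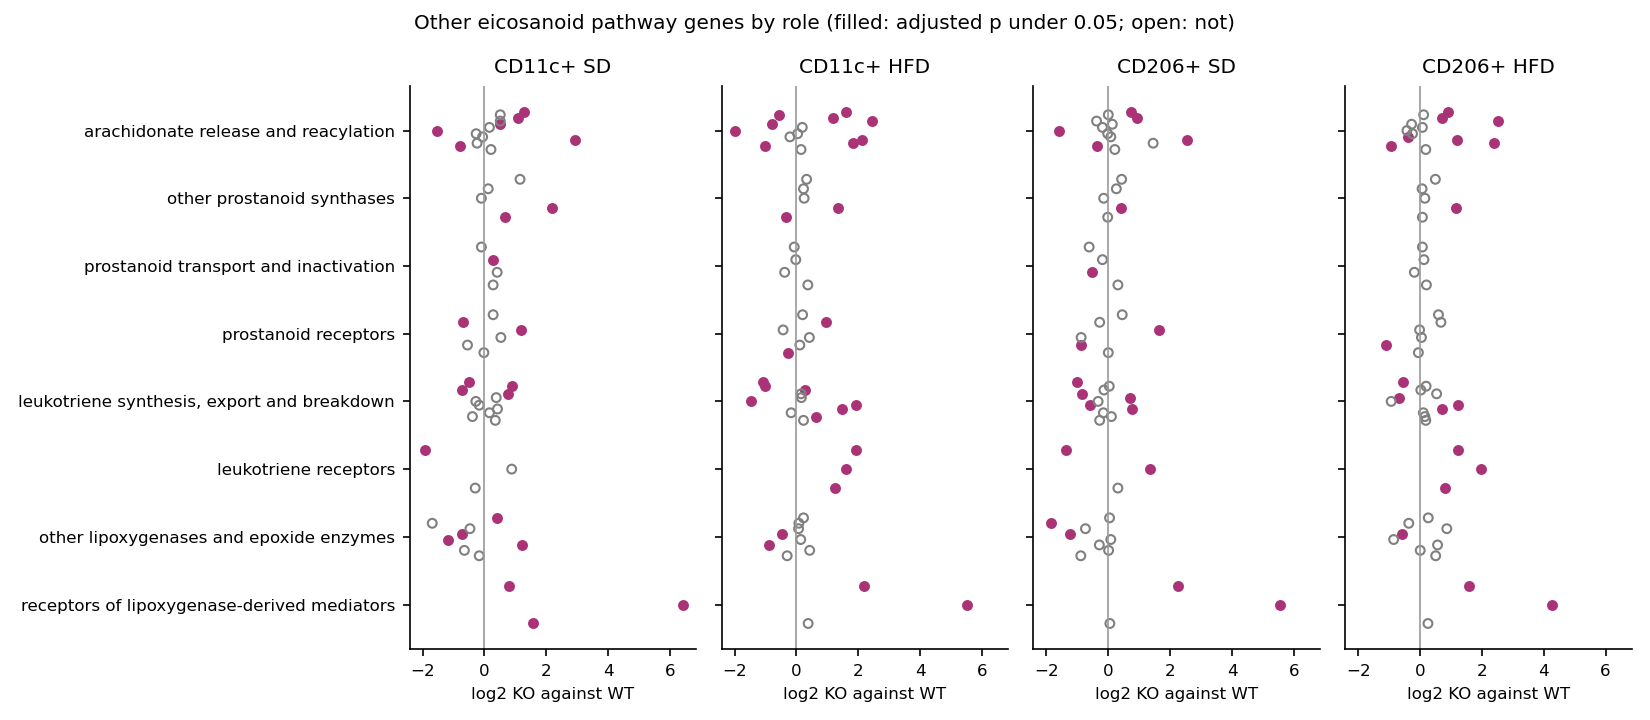
Log2 difference between knockout and wild-type cells for 53 further pathway genes, 1 point per gene in rows by role, with filled points for an adjusted p under 0.05 by edgeR and open points for the rest. Fpr2 is the point farthest to the right in each panel, at 6.43, 5.52, 5.54 and 4.26 from left to right.

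Upstream of the oxygenases, the release genes changed in both directions. Lpcat2, which rebuilds membrane phospholipids and makes platelet-activating factor, rose in the knockout in all 4 comparisons, most in CD11c+ cells on the standard diet, from 19 ± 5.87 to 147 ± 33 CPM (2.94 ± 0.29, adjusted p = 3.7e-09 by edgeR). Pla2g2d, a secreted phospholipase of resident myeloid cells, fell with high-fat feeding in wild-type CD206+ cells from 281 ± 35.2 to 21.3 ± 8.11 CPM (-3.73 ± 0.34, adjusted p = 2.81e-09 by edgeR). In the CD206+ knockout on the high-fat diet it stood at 123 ± 50.8 CPM, 2.53 ± 0.33 above wild type (adjusted p = 6.73e-07 by edgeR), and the genotype effects on the 2 diets differed by 2.91 ± 0.44 (adjusted p = 4.63e-05 by edgeR). Adipocyte genes moved the same way in CD206+ cells. The 6 listed summed to 62.4 to 80.7 CPM in wild type on the standard diet, 8.94 to 25.7 CPM on the high-fat diet, with Plin1, Cfd and Retn under 1 CPM in every library, and 32.2 to 77.4 CPM in the high-fat knockout. Of the 6, 5 fell with high-fat feeding in wild type (27.7% of all genes called in either direction). On that diet 5 rose in the knockout (21.8%). The part of adipocytes in the Pla2g2d values was not tested. Mgll, which cleaves the endocannabinoid 2-arachidonoylglycerol to arachidonic acid, fell in CD11c+ knockout cells on both diets, by -2 ± 0.36 on the high-fat and -1.54 ± 0.37 on the standard diet. It also fell in CD206+ knockout cells on the standard diet, by -1.59 ± 0.34 (adjusted p = 0.000838 by edgeR). Daglb, which makes 2-arachidonoylglycerol, fell in all 4 genotype comparisons, by -0.38 ± 0.12 to -1.01 ± 0.12. Of the 13 release and reacylation genes tested, 5 rose and 4 fell in CD11c+ and 5 rose and 2 fell in CD206+ knockout cells on the high-fat diet, where 38% and 21.8% of all genes were called.

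Among the 6 prostanoid receptors tested, at most 1 rose and 1 fell in any genotype comparison. In these comparisons 21.8 to 38% of all genes were called in either direction, so nothing particular to the receptors is read from the count. Ptger4, a receptor for prostaglandin E, averaged 45.4 ± 8.27 CPM in CD11c+ and 111 ± 8.87 CPM in CD206+ wild-type cells on the standard diet. In the other 3 groups of each population it averaged 103 to 154 CPM and 336 to 344 CPM. It therefore rose with high-fat feeding in wild type (1.76 ± 0.2 and 1.61 ± 0.2) and with loss of A20 on the standard diet (1.19 ± 0.2 and 1.63 ± 0.2), all past an adjusted p of 0.05 by edgeR. On the high-fat diet it passed in neither population, and the genotype effects on the 2 diets differed by -1.62 ± 0.27 in CD11c+ (adjusted p = 3.89e-05 by edgeR) and -1.65 ± 0.27 in CD206+ cells (adjusted p = 0.000121 by edgeR). Ptger2, another receptor for prostaglandin E, fell in CD206+ knockout cells, by -1.11 ± 0.27 on the high-fat and -0.89 ± 0.28 on the standard diet, the latter not past the threshold without knockout replicate 2 (-0.62) or wild-type replicate 2 (-0.76).

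All 3 leukotriene receptors tested rose in the knockout on the high-fat diet in both populations, where 38% and 21.8% of all genes were called in either direction. On the standard diet none rose and 1 fell in CD11c+ cells, and 1 rose and 1 fell in CD206+ cells, beside 26.8% and 24.5% of all genes. Ltb4r1, the high-affinity receptor for leukotriene B4, averaged 358 ± 103 CPM in CD11c+ wild-type cells on the standard diet and 22.6 ± 11.1 CPM on the high-fat diet (-3.98 ± 0.39, adjusted p = 1.01e-09 by edgeR). The CD11c+ knockout groups averaged 95.1 ± 24.1 and 85.7 ± 30.8 CPM, so the genotype difference was -1.91 ± 0.35 on the standard and 1.92 ± 0.36 on the high-fat diet, and these differed from each other by 3.83 ± 0.51 (adjusted p = 1.02e-06 by edgeR). In CD206+ cells its level was lower, 3.33 to 17.4 CPM on average, and the genotype effects differed between the diets by 2.59 ± 0.58 (adjusted p = 0.00315 by edgeR). The rise there on the high-fat diet, 1.21 ± 0.43, did not pass in a fit of the groups compared alone (1.21), nor without wild-type replicate 1 (0.89) or 4 (1.33) or knockout replicate 1 (1.17) or 4 (1.04), and the fall on the standard diet, -1.38 ± 0.39, did not pass without wild-type replicate 1 (-1.09). Cysltr2 stayed at 2.49 CPM or less on average. Cysltr1, like it a receptor for cysteinyl leukotrienes, fell with high-fat feeding in CD11c+ wild-type cells by -1.57 ± 0.13 and stood 1.24 ± 0.12 higher in the knockout on that diet.

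The enzymes that follow Alox5 in the leukotriene branch changed in both directions. Lta4h, which makes leukotriene B4, shared the pattern of Alox5 in CD11c+ cells: it fell in wild type on the high-fat diet by -1.15 ± 0.08, and was lower in the knockout on the standard diet (-0.73 ± 0.08) and higher on the high-fat diet (0.29 ± 0.08). Cyp4f18, which inactivates leukotriene B4, rose in the knockout on the high-fat diet by 1.94 ± 0.2 in CD11c+ and 1.23 ± 0.2 in CD206+ cells. In CD206+ cells the high-fat effect minus the standard-diet effect was 1.83, so no rise is read there on the standard diet. Mgst3, a microsomal glutathione transferase, fell in all 4 genotype comparisons, by -0.49 ± 0.13 to -1.09 ± 0.13. Of the 11 genes of leukotriene synthesis, export and breakdown, 4 rose and 3 fell in CD11c+ knockout cells on the high-fat diet, where 38% of all genes were called.

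Fpr2, a receptor that binds formyl peptides and the lipoxygenase product lipoxin A4, had the largest genotype difference of the 53 genes. It averaged 0.489 to 2.75 CPM in the wild-type groups and 39.5 to 73.6 CPM in the knockout groups, with no overlap between genotypes in any comparison. The differences were 6.43 ± 0.45 and 5.52 ± 0.42 in CD11c+ cells on the standard and the high-fat diet, and 5.54 ± 0.39 and 4.26 ± 0.36 in CD206+ cells (adjusted p from 9.24e-12 to 3.93e-10 by edgeR). Neutrophils express Fpr2 as well. The 6 neutrophil genes found summed to 54.3 to 112 CPM in the knockout libraries and 8.73 to 53.2 CPM in the wild-type libraries. Retnlg stayed under 1 CPM in every library and Mmp8 in every knockout library. S100a9 did so in the knockout on the standard diet, and S100a8 in the CD11c+ knockout on that diet. Of 5 neutrophil genes tested, none fell in the knockout. In CD11c+ cells 2 rose on the high-fat diet (38% of all genes called in either direction) and 1 on the standard diet (26.8%). In CD206+ cells 3 rose on the high-fat diet (21.8%) and 2 on the standard diet (24.5%). The part of neutrophils in the result was not tested. The 5 T cell genes found also summed higher in the knockout, at 22.1 to 134 CPM against 2.65 to 12.8 CPM. Gpr18, listed for its ligand resolvin D2, rose in all 4 comparisons, by 0.78 ± 0.27 to 2.25 ± 0.3.

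In wild-type cells, 15 of the 53 genes rose and 13 fell with high-fat feeding in the CD11c+ population, and 6 rose and 9 fell in the CD206+ population. These are 52.8% and 28.3% of the 53, beside 46.3% and 27.7% of all genes, so the share in CD206+ cells was near that of all genes. In knockout cells none passed in either population by edgeR, with 5 and 7 genes at an unadjusted p under 0.05, and none by DESeq2. Ltb4r1, Ptger4 and Pla2g2d differed between the diets in CD11c+ knockout cells by -0.15 ± 0.34, 0.15 ± 0.19 and -0.1 ± 0.32. Between populations, 10 genes were higher and 7 lower in CD11c+ wild-type cells on the high-fat diet, which became 17 and 11 with the replicate number as a block. On the standard diet 19 were higher and 22 lower in CD11c+ wild-type cells, and in the knockout 17 and 13 on the high-fat diet and 20 and 17 on the standard diet. In the order given, the 4 comparisons called 32.1%, 77.4%, 56.6% and 69.8% of the 53 beside 20.4%, 63.7%, 45.8% and 51.7% of all genes. Ltb4r1 was higher in CD11c+ cells in all 4 of these comparisons, by 2.78 ± 0.42 to 4.36 ± 0.4, and Ptger4 and Pla2g2d were lower in all 4.

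Per kilobase of exon, the order of the 10 genes differed between the populations. The length used merges all annotated exons of a gene, 9094 bases for Tbxas1. It can exceed that of the transcripts present, so the order between genes depends on the annotation. Alox5ap led in every CD11c+ group, with Hpgd next in wild type on the high-fat diet (90.4 ± 22.3 CPM per kilobase), Tbxas1 next in wild type on the standard diet (39.6 ± 9.1) and Ptgs2 next in the knockout (54.4 ± 13.2 on the standard and 39.5 ± 23.9 on the high-fat diet). In CD206+ wild-type cells Hpgd led on both diets, at 247 ± 34.4 and 170 ± 18.3 CPM per kilobase, ahead of Alox5ap and Ltc4s. In the CD206+ knockout Alox5ap led, at 202 ± 9.46 and 213 ± 31.4 CPM per kilobase. Ptges was last in the 4 CD206+ groups.

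Across the 32 libraries, which share the sort, diet and genotype that set their levels, log CPM of Hpgds and Alox5ap gave a Pearson r of -0.95, and that of Ptgs1 and Alox5 0.89. Alox5 and Ltc4s gave 0.8, and Ptgs2 and Hpgd -0.77. Among genes with at least 10 CPM on average, the ones most like each enzyme in level were Fcna (0.99), Lyve1 (0.98) and Ednrb (0.97) for Ltc4s, and Dennd2a (0.97), Tnfaip1 (0.96) and Sfmbt1 (0.96) for Hpgds. For Ptgs2 they were Lmo4 (0.93), Gsdmd (0.9) and Nfkbie (0.9), for Ptgs1 Mgl2 (0.93), Aph1b (0.92) and Grap (0.91), and for Hpgd Gpr34 (0.97), Rhbdf1 (0.96) and Fam110b (0.96). Alox5 was closest to F13a1 (0.97), Lifr (0.95) and Bank1 (0.95), and Alox5ap to Arhgdib (0.97), H2-DMa (0.97) and Cish (0.95). For Ptges, Tbxas1 and Alox15 the closest genes were N4bp1 (0.87), Gpsm3 (0.9) and Padi4 (0.85).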

How the data were processed

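Bulk RNA sequencing covered 32 libraries of sorted mouse adipose tissue macrophages, 4 in each of 8 groups. The authors deposited raw counts per gene for each library. Per the submitters' processing notes, FastQC 0.11.4, Trimmomatic 0.35, TopHat2 2.1.0, SAMtools 0.1.18 and the mm10 (GRCm38) build were used, while for the counting tool, annotation and strand setting the sources used here give nothing. The 5 entries that name no gene were kept out of library sizes (reads outside genes came to 5.16 to 11.1% and ambiguous reads to 0.992 to 1.48%). Genes were filtered with filterByExpr (minimum count 10), scaled by TMM (factors 0.855 to 1.08) and fitted over all 32 libraries with edgeR 4.0.16 (quasi-likelihood test, R 4.3.3), with 12 comparisons of group pairs and 2 differences of genotype effects, and Benjamini-Hochberg adjustment over 13453 genes. Replicates differed beyond counting noise, with a chi-square of 10.4 to 63.8 per degree of freedom.

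The 10 genes and all lists were chosen with earlier results of these data known. Named pathway genes were those past an adjusted p of 0.05 with the largest differences and at least 2 CPM in the higher group, and, for differences of genotype effects, those with the smallest p. Genes named in addition were chosen after their values were seen. Genes of like level were the 3 with the highest correlation of log CPM, among those of at least 10 CPM on average. Gene positions and exon lengths came from GENCODE M21 and promoters from RefSeq, both on GRCm38. Alternatives were RLE scaling, no filter, DESeq2 1.42.0, only the groups compared, the replicate number as a block, and 32 fits without 1 library each. Libraries of the same number deviated together in every pair between the populations in wild type on the high-fat diet (r from 0.23 to 0.47), wild type on the standard diet (0.14 to 0.28) and knockout on the standard diet (0.14 to 0.32), and not in the other comparisons. The fit was tested on simulated data. Intervals from these libraries cover spread between libraries, and low levels such as those of Alox15 and Ptges rest on few reads.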

Additional observations from a re-analysis of the deposited data

Results flagged for a closer look

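Single libraries stood apart from the other 3 of their group in 13 of 136 combinations of gene and group examined, a rule that chance meets in about 1 of 20. Ptgs1 read 202 CPM in CD11c+ wild type on the standard diet, replicate 4, against 83.7 to 102 CPM, and 81.5 CPM in CD11c+ knockout on the standard diet, replicate 1, against 36.3 to 40.5 CPM. Ptges read 7.93 CPM in CD11c+ knockout on the standard diet, replicate 4, against 2.32 to 3.27 CPM. Hpgds read 210 CPM in CD11c+ wild type on the high-fat diet, replicate 1, against 146 to 152 CPM, and Alox5 read 37.8 CPM in replicate 2 of that group against 25.6 to 26.9 CPM. Tbxas1 read 234 CPM in CD206+ wild type on the standard diet, replicate 4, against 173 to 180 CPM. Alox5ap read 236 CPM in CD206+ knockout on the high-fat diet, replicate 3, against 323 to 328 CPM. Alox15 read 28.4 CPM in CD206+ wild type on the high-fat diet, replicate 3, against 2.61 to 6.75 CPM.

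Among the other pathway genes, Ltb4r1 read 131 CPM in CD11c+ knockout on the standard diet, replicate 1 (others 81.7 to 84 CPM), 131 CPM in CD11c+ knockout on the high-fat diet, replicate 2 (others 64.4 to 75.4 CPM), and 0.866 CPM in CD206+ wild type on the high-fat diet, replicate 1 (others 3.95 to 4.4 CPM). Lpcat2 read 27.8 CPM in CD11c+ wild type on the standard diet, replicate 2, against 15.1 to 17 CPM. Lta4h read 68.2 CPM in CD206+ knockout on the standard diet, replicate 4, against 63.8 to 64.6 CPM.

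The genotype effect differed between the diets, as a tested interaction in edgeR, for several pathway genes. In CD11c+ cells the high-fat effect minus the standard-diet effect was 1.01 for Lta4h (adjusted p = 7.18e-08), 1.53 for Cysltr1 (adjusted p = 9.59e-08), 3.83 for Ltb4r1 (adjusted p = 1.02e-06), -1.91 for Mgst1 (adjusted p = 7.81e-06), -1.62 for Ptger4 (adjusted p = 3.89e-05) and -0.99 for Cbr1 (adjusted p = 6.71e-05), by edgeR. In CD206+ cells it was 2.91 for Pla2g2d (adjusted p = 4.63e-05), 1.83 for Cyp4f18 (adjusted p = 4.91e-05), -1.65 for Ptger4 (adjusted p = 0.000121), -1.41 for Dpep2 (adjusted p = 0.00121), 2.59 for Ltb4r1 (adjusted p = 0.00315) and -1.36 for Lpcat2 (adjusted p = 0.0166), by edgeR. The Lpcat2 call did not hold without CD206+ knockout replicate 4 on the standard diet (-1.03).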

How the results depend on the processing

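Under the alternatives run, no fitted difference of the 10 enzymes moved by more than the spread between libraries (1 SD). Their calls were less steady. Of 140 combinations of an enzyme with a comparison or a difference of genotype effects, the call changed in 30 in at least 1 alternative. In 17 it changed in an alternative other than leaving out 1 library. The enzymes were selected on these values, so their calls here describe the fits and test nothing. Of 132 named pathway calls 14 were lost in at least 1 alternative, 12 of them only by leaving out 1 library. With the replicate number as a block, the pathway genes past the threshold between the populations in wild type on the high-fat diet went from 17 to 28 (17 higher, 11 lower), and no other count of pathway genes or of the 10 enzymes moved by over 1.5 times under the block. Between the diets in CD11c+ knockout cells, 0 of the 10 enzymes became 1 by DESeq2 and 0 to 2 without 1 library (2, Ltc4s and Hpgd, without high-fat replicate 1), and 0 of 53 pathway genes became 0 to 1. Between the diets in CD206+ wild-type cells, 5 enzymes became 3 to 4 without 1 library (3 without high-fat replicate 4). Over all genes, calls between the diets in the knockout ranged without 1 library from 0 to 80 in CD11c+ cells (edgeR 1 with all libraries) and from 0 to 7 in CD206+ cells (0 with all). The cause was not tested. Single libraries carried several enzyme values. Without CD206+ knockout replicate 4 on the standard diet the Ptges difference from wild type was 1.88 in place of 2.74, and the diet difference in the knockout 0.46 in place of -0.42. Without CD206+ wild-type replicate 3 on the high-fat diet the Alox15 difference between genotypes was 1.71 in place of 0.54, and that between diets -0.46 in place of 0.69. Without CD11c+ knockout replicate 2 on the high-fat diet the Alox15 difference was 2.97 in place of 3.71 and no longer past the threshold. The Ptgs2 difference in CD11c+ cells on the standard diet fell short without knockout replicate 2 or 3 or wild-type replicate 1, 2 or 4 (1.03 to 1.23), and that of Hpgd without knockout replicate 3 or 4 or wild-type replicate 2 (-0.98 to -0.94).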
